A study of Mus musculus with 8 samples.

Results

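The clustered histone genes described here are the 69 genes, of 27998 in the deposited gene tables, whose symbols start with Hist1h, Hist2h, Hist3h or Hist4h. They were taken by symbol, in a choice made with earlier results of these data known. Of the 69 identifiers 2 carry the same symbol, Hist2h2bb. The linker histone gene Hist1h1c was set against the other 68, which comprise 5 H1, 19 H2A, 19 H2B, 12 H3 and 13 H4 genes and were summed as the replication-dependent set. The sum takes in every other symbol of these clusters, whether or not its transcript is limited to dividing cells.

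The core histones H2A, H2B, H3 and H4 form the nucleosome around which DNA is wound, and H1 linker histones bind the DNA between nucleosomes. Most genes of these clusters are transcribed while DNA is replicated, and their mRNAs usually end in a short hairpin, the stem-loop bound by SLBP, instead of a poly(A) tail. Single-cell libraries primed on runs of A see such mRNAs through internal A runs or through polyadenylated forms, so the values below are captured tags and not amounts of histone mRNA.

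The study sequenced 8 libraries of YFP-positive microglia, 1 per group, sorted from the lumbar spinal cord of young or adult C57BL/6 mice of both sexes, with several animals pooled per library. Control mice (YFP in the labels) were Cx3cr1-yfp-creER/+, and A20 cKO mice (A20 in the labels) were Cx3cr1-yfp-creER/+; Tnfaip3 fl/fl, in which tamoxifen activates a Cre recombinase expressed from the Cx3cr1 gene that deletes Tnfaip3, the gene of the NF-κB inhibitor A20. Tamoxifen preceded all experiments, so both genotypes carry the Cre allele and the drug. Each genotype was sampled naive and at day 1, 2 and 3 after bilateral sciatic nerve transection, a nerve injury after which spinal microglia divide. With 1 library per group no difference was tested, and all 95% intervals, exact Poisson for levels, exact binomial for shares and conditional binomial for ratios, cover counting error only.

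A UMI (unique molecular identifier) stands for 1 captured molecule. Of the 14883 barcodes, the 14626 with 1000 UMIs, 500 genes and no more than 10% of UMIs from mitochondrial genes were used, 558 to 3585 per library, with a median of 2780 to 4274 UMIs. Levels are UMIs per 1000000 UMIs of these cells (CPM). Before the results, 5 libraries stood apart. Control day 3 and the 4 A20 cKO libraries shared 256 cell barcodes in their 10 pairs, or 13.2 per 1000000 barcode pairs, against 1.77 between these 5 and the other 3 libraries (control naive, day 1 and day 2) and 1.67 within those 3. Among kept cells the rates were 6.40, 1.68 and 1.70. The 6 microglia markers, all detected in each library, summed to 11242 to 17973 CPM in the 5 libraries and to 19071 to 23381 CPM in the 3. Summed astrocyte markers lay at 4.39 to 16.9 CPM in the 5 against 0 to 1.52 CPM in the 3, summed monocyte markers at 24.4 to 83.7 against 1.85 to 3.70 CPM and the neutrophil markers S100a8, S100a9 and Retnlg at 20.1 to 35.0 CPM against 0 UMIs in each of the 3. Other marker lists did not all split this way. Summed endothelial markers were highest in control naive, at 51.2 CPM against 25.1 to 41.3 CPM in the 5. Summed lymphocyte markers were highest in control day 2, at 3.10 CPM against 0 to 0.41 CPM in the 5. The part of other cells and of the library set in the results below was not tested. In any comparison that crosses from the 3 to the 5, condition and library set cannot be told apart, and such comparisons are named below as crossing. Tnfaip3 itself did not mark the genotype, at 24.1, 25.3, 6.83 and 20.3 CPM in control naive and day 1 to 3 and 47.4, 42.3, 52.4 and 67.7 CPM in the A20 cKO libraries. These tags count the end of the transcript, and which exons are deleted is not given in the sources used here, so the deletion was not checked and the libraries are named by their labels.

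The histone stem-loop consensus, 16 letters read on the sense strand, was looked for in the GENCODE transcripts of GRCm38. It was present in 42 of the 67 members found there (62.7%) and in 9 of 21886 other protein-coding genes (0.0411%). Some members have short annotated transcripts, such as 393 bases for Hist1h2an, which may stop before the letters. The stretches below, each from the member's annotated transcript, are shown because the members differ in what precedes the hairpin and in how far the annotated transcript runs on after it. Capitals mark the stem-loop.
Hist1h2ap: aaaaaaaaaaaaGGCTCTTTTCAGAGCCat
Hist1h2ae: aaaaaaaacaaaGGCTCTTTTCAGAGCCat
Hist1h2ab: aaccaaaacaaaGGCTCTTTTCAGAGCCac
Hist1h1c: aacaatccaaaaGGCTCTTTTCAGAGCCac
Hist1h1e: caacaacccaaaGGCTCTTTTCAGAGCCac
Hist3h2a: acagacaccaaaGGCTCTTTTCAGAGCCac
Hist4h4: cccatccacaaaGGCCCTTTTCAGGGCCca
Hist1h2ap, an H2A gene at chr13:21833026-21833507 (minus strand), has 12 A directly before the hairpin, its longest A run, and is annotated to end 3 bases after it. Hist1h2ae (chr13:23570517-23571220, minus strand) has a run of 8 A and ends 151 bases after it, and Hist1h2ab (chr13:23751126-23751598, plus strand) has at most 4 A in a row and ends 11 bases after it. The linker gene Hist1h1c (chr13:23738808-23740367, plus strand) runs on for 840 bases and holds AATAAA, the poly(A) signal, after the hairpin. Hist3h2a on chromosome 11 runs on for 1643 bases and Hist4h4 on chromosome 6 for 2445 bases, both with AATAAA. Hist1h1e (chr13:23620629-23622558, minus strand) runs on for 1153 bases without AATAAA. Of the 91-base windows at its end 99.0% also lie in the annotated transcript of Hist1h2be or Gm11398. Tags from that end cannot be told apart by sequence, and how they were assigned or left out was not checked.

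The promoters were also compared, since most members were higher in the same class of cells, described below. RefSeq promoter sequence of GRCm38.p6, from 250 bases before to 50 after the start, was matched for 61 members. CCAAT, the letters bound by NF-Y, occurred on either strand in 52 of 61 (85.2%), against 41.0% of 26964 other genes, and it was in all 6 H1, 17 H2A, 16 H2B and 10 H3 promoters matched but in 3 of 12 H4 promoters. TATAAA was in 57.4% against 15.6%, and AAACACA, known from H1 genes, in 5 of 6 H1 promoters against 8.21% of other genes. TTTGCAT, an octamer core known from H2B genes, read forward in 7 of 16 H2B promoters (43.8%), against 2.74% of other genes, and on the other strand in 7 of 17 H2A promoters (41.2%). On either strand it was in 15 of 61 members and 1401 of 26964 other genes. TTTCGCGC, an E2F-type site, was in 14.8% of members and 0.341% of other genes. Some H2A and H2B members lie head to head, so a site can be counted for both genes, on opposite strands. The Hist1h2an window printed below holds the annotated start of Hist1h2bp (chr13:21787461, plus strand). These counts are therefore not of independent promoters. The 250 bases before the start of 4 members are printed with these letters, on either strand, in capitals: Hist1h1b and Hist1h2an, the members most tied to the G2/M class below, the linker Hist1h1c, and Hist4h4, which was below 2-fold there.
Hist1h1b, chr13:21780626-21780875, minus strand: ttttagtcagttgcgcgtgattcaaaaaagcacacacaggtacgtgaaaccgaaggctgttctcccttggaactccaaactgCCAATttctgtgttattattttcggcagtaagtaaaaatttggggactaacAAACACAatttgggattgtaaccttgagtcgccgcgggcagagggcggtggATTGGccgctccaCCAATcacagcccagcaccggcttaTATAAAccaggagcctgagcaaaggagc
Hist1h2an, chr13:21787249-21787498, minus strand: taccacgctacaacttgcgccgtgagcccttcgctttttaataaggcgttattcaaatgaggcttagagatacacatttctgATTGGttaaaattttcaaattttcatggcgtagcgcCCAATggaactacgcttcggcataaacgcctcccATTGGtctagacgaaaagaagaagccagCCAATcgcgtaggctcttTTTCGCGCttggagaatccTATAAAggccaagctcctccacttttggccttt
Hist1h1c, chr13:23738557-23738806, plus strand: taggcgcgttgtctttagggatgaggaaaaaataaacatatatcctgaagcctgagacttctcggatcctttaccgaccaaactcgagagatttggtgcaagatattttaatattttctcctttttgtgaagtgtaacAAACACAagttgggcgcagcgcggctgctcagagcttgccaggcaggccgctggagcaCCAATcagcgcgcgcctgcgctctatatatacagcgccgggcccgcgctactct
Hist4h4, chr6:136804432-136804681, minus strand: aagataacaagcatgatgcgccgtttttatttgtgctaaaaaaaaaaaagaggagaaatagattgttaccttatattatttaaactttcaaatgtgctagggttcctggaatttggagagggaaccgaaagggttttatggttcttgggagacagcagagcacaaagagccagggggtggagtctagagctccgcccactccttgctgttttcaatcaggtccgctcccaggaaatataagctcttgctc
The Hist1h1b promoter holds TATAAA 28 bases and CCAAT 53 bases before the start, with AAACACA further upstream, and Hist1h2an adds TTTCGCGC. Hist1h1c has CCAAT and AAACACA without TATAAA. None of the 5 letter strings was found in the Hist4h4 window, which says only that these letters are absent there. Hist3h2a, Hist1h2bc and Hist1h3a were also below 2-fold in the G2/M class. They are H2A, H2B and H3 genes, types in which all matched promoters held CCAAT. Of the 6 H4 members for which a ratio was formed, 5 were at least 2-fold higher there, and CCAAT was in 3 of 12 H4 promoters. Whether these letters go with the G2/M ratio was not tested.

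The members gave 47166 UMIs in the kept cells, 0.0397% of all UMIs in control naive and 0.140% in A20 cKO day 2, the lowest and highest shares. A few genes carried most of them. Hist1h2ap (8661 UMIs), the linker gene Hist1h1e (7697) and Hist1h1c (5338) together made 46.0%, and 11 genes made 80.7%. Hist3h2a (3162), the H2B gene Hist1h2bc (3024), the H4 gene Hist4h4 (2169) and the linker gene Hist1h1b (2073) followed. At least 200 UMIs over all libraries were required before a ratio was formed for a gene. Of the 69 members 26 passed, with 94.7% of the UMIs, and 43 did not. A member can pass through the group in which it is high, so counts over the 26 describe those genes and not the family. The 3 members known from testis, Hist1h1t, Hist1h2aa and Hist1h2ba, had 3, 0 and 0 UMIs, and Hist1h2br was the remaining member with 0.

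**Figure D1:**
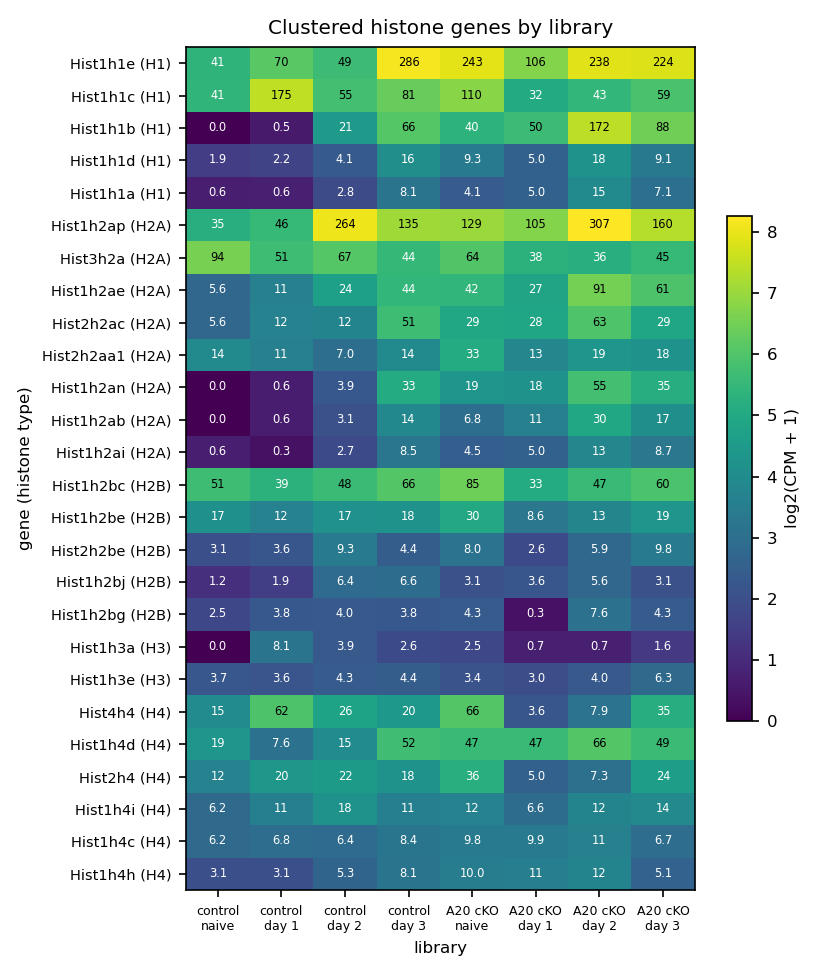
Level of the 26 members with at least 200 UMIs in the 8 libraries, grouped by histone type (rows) and coloured by log2(CPM + 1), with the CPM printed in each cell. Hist1h1b and Hist1h2an are at 0 in control naive and highest in A20 cKO day 2, while Hist1h1c and Hist1h3a are highest in control day 1.

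Paralogs limit what can be said of single H2A genes. Of the 91-base windows at the end of Hist1h2ap 92.3% are shared with other members, chiefly Hist1h2ao, which has the same run of 12 A and received 24 UMIs. The share was 83.8% for Hist1h2an, 88.8% for Hist1h2ai and 100% for Hist2h2aa1, whose twin Hist2h2aa2 had 12 UMIs. Their values are uncertain as values of 1 gene. How reads from shared windows were assigned or left out was not checked. Hist1h1b, Hist1h1a, Hist1h1c, Hist1h2bc, Hist4h4 and Hist3h2a shared no window.

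The 68 members other than Hist1h1c summed to 356 CPM in control naive (95% interval 328 to 386), 404 CPM at control day 1, 699 CPM at day 2 and 1007 CPM at day 3. In A20 cKO mice the sum was 980.5 CPM (960.0 to 1001) in naive, 584 CPM at day 1, 1357 CPM at day 2 and 1002 CPM at day 3. Control levels were thus higher at each later day, although the step to day 3 crosses between the sets, whereas the A20 cKO naive library was close to control day 3, which is in its set, and day 1 was the lowest of its genotype. Hist1h1c followed another order. It was at 41.3 CPM (32.0 to 52.5) in control naive, 175 CPM (168 to 182) at day 1, 54.6 CPM at day 2 and 81.1 CPM at day 3. In A20 cKO it was highest in naive, at 109.9 CPM (103 to 117), and lower at day 1 (32.0 CPM), day 2 (43.2 CPM) and day 3 (59.0 CPM).

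**Figure D2:**
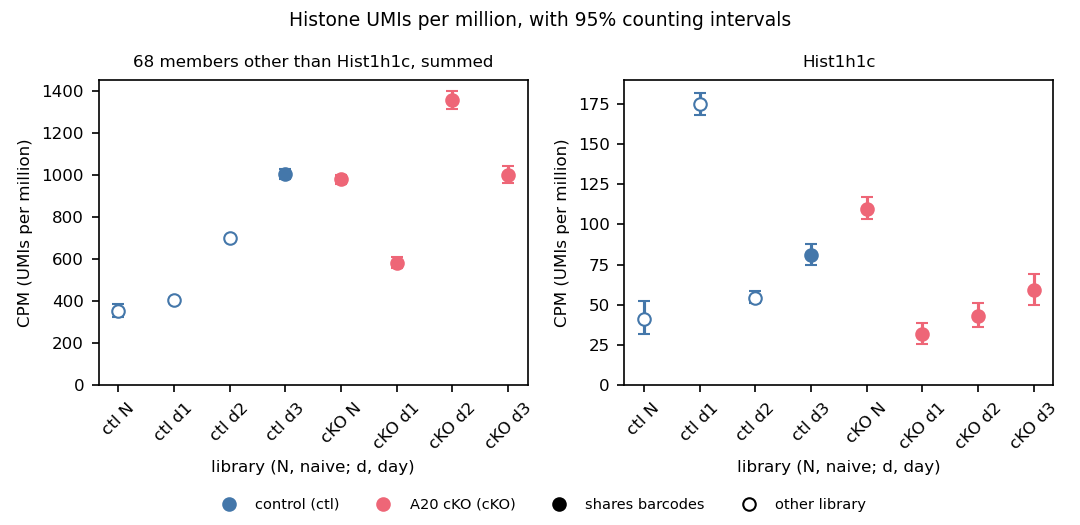
CPM of the 68 summed members (left) and of Hist1h1c (right) in each library, with 95% Poisson intervals. Filled points are the 5 libraries that share barcodes and open points the other 3. Control day 1 has the highest Hist1h1c (175 CPM) but a low sum (404 CPM), and A20 cKO day 2 has the highest sum (1357 CPM) but a low Hist1h1c (43.2 CPM).

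To compare the share of cells at equal depth, each cell was thinned at random to 2000 UMIs, which left out 935 shallower cells and kept 13691. A UMI of the summed members was then found in 48.2% of control naive cells, 51.6%, 55.9% and 60.5% at control day 1 to 3, and in 67.0%, 43.6%, 51.4% and 60.0% of A20 cKO cells at naive and day 1 to 3. A20 cKO day 2 had the highest level but a lower share of cells than A20 cKO naive. A UMI of Hist1h1c was found in 8.17%, 25.1%, 9.89% and 13.4% of control cells and in 16.5%, 6.39%, 5.91% and 9.29% of A20 cKO cells, the order of its levels within control, while within A20 cKO day 1 and day 2 changed places within their intervals. Without thinning the median share over the libraries was 73.0% for the sum and 18.4% for Hist1h1c, against 53.8% and 9.59% with it. No cell type that should lack these transcripts was sorted, so no background share can be given.

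Within controls, day 1 differed from naive by a log2 ratio of 0.18 for the sum, and 3 of the 26 members were at least 2-fold higher (4.21% of all 10201 genes with 200 UMIs were) and 2 at least 2-fold lower (10.7%). The median ratio of all 10201 genes was itself -0.17, and scaled to it 7 members were higher and 2 lower. With the minimum at 100 UMIs, which 35 members reached, 7 were lower. No share of all genes was formed for that minimum or after scaling to the median gene. Counts given for either, here and below, therefore have no background beside them. The 3 were Hist1h1c, at a log2 ratio of 2.07 (1.73 to 2.45), Hist4h4 at 2.03 (1.47 to 2.71), and the H3 gene Hist1h3a, with 114 UMIs against 0 in naive and so at least 4.38-fold higher against a floor of 3 counts. At day 2 the sum stood 0.97 above naive, and 12 of 26 members were at least 2-fold higher (6.11%) and 1 lower (8.48%). Hist1h2ap went from 35.2 CPM in naive and 45.5 CPM at day 1 to 264 CPM at day 2, a log2 ratio to naive of 2.90 (2.53 to 3.31), and Hist1h1b from 0 UMIs to 20.8 CPM, at least 11.2-fold. The gene that was lower was Hist2h2aa1, at 14.2 CPM in naive and 6.95 CPM at day 2. Control day 3 crosses to the other set of libraries: 14 members were at least 2-fold higher (10.4%) and 1, Hist3h2a, lower (3.70%). Hist1h1e was at 40.7, 70.5 and 49.3 CPM in control naive, day 1 and day 2 and at 286 CPM at day 3. All these ratios share the control naive library, which had 1620481 UMIs and is the shallowest.

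The 4 A20 cKO libraries belong to the same set, so their time course does not cross. At day 1 the sum was 0.75 below naive on the log2 scale (log2 ratio -0.75), and 10 of 26 members were at least 2-fold lower (2.16% of all genes), while 0 were higher (2.44%), or 2 with a minimum of 100 UMIs. The lowest was Hist4h4, at 65.9 CPM in naive and 3.63 CPM at day 1, a log2 ratio of -4.12 (-5.19 to -3.33). The H4 gene Hist2h4 was at 35.5 and 4.95 CPM (log2 ratio -2.80), Hist1h1c at a log2 ratio of -1.77 (-2.09 to -1.48), Hist1h2bc at -1.36 and Hist1h1e at -1.19. At day 2 the members split, with 8 at least 2-fold higher than naive (4.0%, or 408 of 10201 genes) and 5 lower (3.68%). With a minimum of 100 UMIs 13 were higher. The higher group was led by Hist1h2ab at 2.11 (1.63 to 2.61) and Hist1h1b at 2.11 (1.91 to 2.30), the latter from 40.0 to 172 CPM, with Hist1h1a at 1.80 and Hist1h2ap at 1.25. The lower group held Hist4h4 at -3.03, Hist2h4 at -2.26 and Hist1h1c at -1.34 (-1.62 to -1.08). At day 3, 2 members were at least 2-fold higher, Hist1h2ab at 1.28 and Hist1h1b at 1.13 (2.92%), and 0 lower (2.92%). The higher count was 4 when scaled to the median gene and 6 with a minimum of 100 UMIs. Hist1h1c was still below naive at -0.89 (-1.15 to -0.65), and Hist1h1e at -0.12 was not distinguishable from it by counting error.

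Between genotypes at 1 time, day 3 alone stays within 1 set of libraries. There the sum differed by a log2 ratio of -0.01 and 1 of 26 members, the H2B gene Hist2h2be, was at least 2-fold higher in A20 cKO, at 9.84 against 4.39 CPM (2.48% of all genes), with 0 lower (3.79%). Hist1h1c was lower, at -0.45 (-0.73 to -0.20). The A20 cKO naive and control day 3 libraries, also within the set, differed in the sum by -0.04, with 3 members at least 2-fold higher in A20 cKO naive (1.09%), Hist4h4 at 1.69, Hist2h2aa1 at 1.21 and Hist2h4 at 1.00, and 1 lower, Hist1h2bj (1.94%), or 4 lower with a minimum of 100 UMIs. The other contrasts cross. In naive, 19 of 26 members were at least 2-fold higher in A20 cKO (9.16%) and 0 lower (3.44%), with Hist1h1e at 40.7 CPM in control and 243 CPM in A20 cKO. At day 1, 11 were higher (18.7%) and 5 lower (3.15%), with Hist1h1c at -2.44 and Hist4h4 at -4.02 among the lower. With a minimum of 100 UMIs 18 were higher, with no share of all genes formed. At day 2, 12 were higher (12.1%) and 3 lower (4.85%), with Hist1h1b at 20.8 CPM in control and 172 CPM in A20 cKO but Hist1h2ap at 264 and 307 CPM. Over the libraries as a whole, 10 of the 26 members lay above the highest of the 3 in each of the 5 libraries (20.4% of all genes did) and 0 lay below (10.2%). The 10 were Hist1h1a, Hist1h1b, Hist1h1d, Hist1h1e, Hist1h2ab, Hist1h2ae, Hist1h2ai, Hist1h2an, Hist1h4d and Hist2h2ac, and Hist1h2ap and Hist1h1c were not among them.

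Cells were then assigned to a class by genes that are no members. The G2/M class took thinned cells in which 3 or more of 18 core G2/M genes had a UMI, the S class took those with 3 or more of 12 core S genes and fewer than 3 core G2/M genes, and the rest were called other cells. The G2/M class held 1 and 2 cells in control naive and day 1, 477 cells (13.7%) at control day 2 and 160 (8.52%) at day 3, and 77 (2.95%), 25 (3.01%), 76 (12.1%) and 41 (7.62%) in A20 cKO naive and day 1 to 3. The S class held 1, 59, 193 and 48 cells in the controls and 38, 39, 27 and 14 in A20 cKO. Classes of at least 20 cells were compared, which left 6 libraries for each class.

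The level of the histone tags was higher in the G2/M class than in other cells in all 6 libraries. The summed members were at 1865 CPM in G2/M cells and 423 CPM in other cells at control day 2, at 4849 and 528 CPM at control day 3, and in A20 cKO at 5738 and 775 CPM in naive, 6918 and 290.3 CPM at day 1, 6002 and 377 CPM at day 2 and 4582 and 551 CPM at day 3. The log2 ratio ran from 2.14 (2.09 to 2.20) at control day 2 to 4.57 (4.44 to 4.71) at A20 cKO day 1, and no G2/M value overlapped the other cells of any library. In the S class, at 265 to 616 CPM over its 6 libraries, the log2 ratio of the sum to other cells ran from -0.32 to 0.49, but these values were unstable: with 4 core genes required the median over the libraries went from -0.11 to 0.80, A20 cKO naive turned from -0.32 to 0.83, and with another random thinning A20 cKO day 2 went from -0.11 to 1.35. No direction is therefore given for S cells. Hist1h1c showed a smaller step. It was at 60.8 CPM in G2/M cells and 54.3 CPM in other cells at control day 2 and at 181 and 68.8 CPM at control day 3. In A20 cKO it was at 201 and 106.6 CPM in naive, 179 and 25.6 CPM at day 1, 128 and 24.7 CPM at day 2 and 119.6 and 54.0 CPM at day 3. The interval of its ratio spanned 0 at control day 2 (0.17, -0.08 to 0.41) and excluded 0 in the other 5 libraries.

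**Figure D3:**
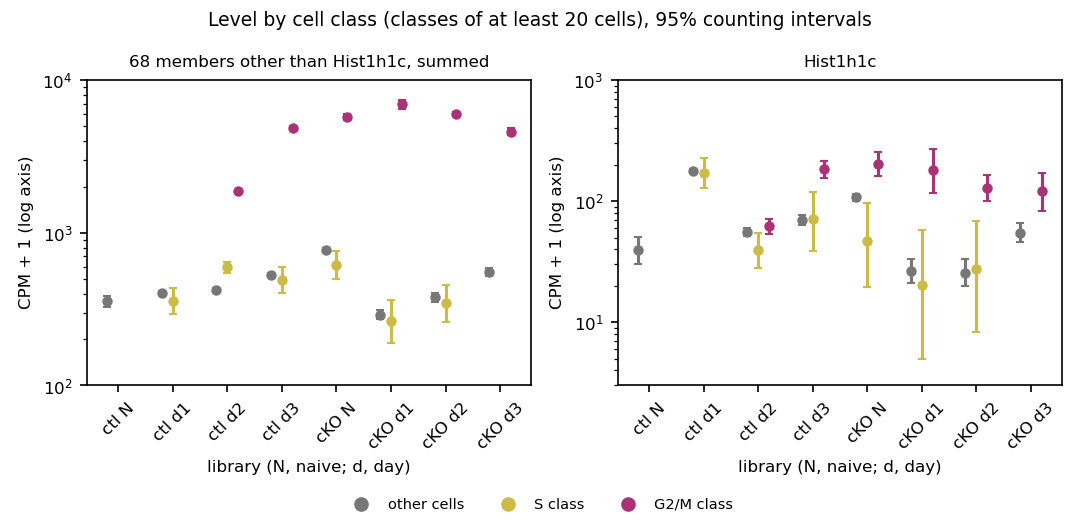
CPM + 1 on a log axis of the 68 summed members (left) and of Hist1h1c (right) in other cells, the S class and the G2/M class of each library, for classes of at least 20 cells, with 95% Poisson intervals. The G2/M class stands above the other cells in all 6 libraries for the sum, from 1865 CPM at control day 2 to 6918 CPM at A20 cKO day 1, and less so for Hist1h1c.

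G2/M cells held a larger share of the sum than of Hist1h1c in all 6 libraries compared. In A20 cKO day 2 they gave 77.3% of the UMIs of the summed members and 52.3% of those of Hist1h1c, beside 17.6% of all UMIs. At control day 2 they gave 49.6% and 20.8%, beside 18.7%. In A20 cKO naive they gave 26.2% and 8.34%, beside 4.55%, so that there most UMIs of both lay in other cells. At control day 1, with 2 G2/M cells, other cells gave 97.3% of the summed members and 97.8% of Hist1h1c. A thinned G2/M cell of A20 cKO day 1 had UMIs of 6.16 members on average and one of control day 2 of 1.98, against 0.573 to 1.23 in the other cells of the 8 libraries.

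By gene, 22 of the 26 members were at least 2-fold higher in the G2/M class than in other cells on the mean CPM + 1 over the 6 libraries (6.02% of all genes were), and 0 were 2-fold lower (1.81%). The median log2 ratio of the 26 was 2.44 and that of all genes -0.01. Hist1h1b led at 6.07, from 9.06 CPM in other cells to 673 CPM, followed by Hist1h2an at 5.84, Hist1h2ab at 5.31, Hist1h2ap at 4.86 (to 1359 CPM), Hist1h2ae at 4.68, Hist1h2ai at 4.37 and Hist1h1a at 4.36. Each of these 7 was higher in G2/M cells in 6 of 6 libraries. Hist1h1e was at 2.58 and Hist1h1c at 1.37. The 4 members below 2-fold were Hist1h3a at 0.81, Hist1h2bc at 0.78, Hist4h4 at 0.36 and Hist3h2a at -0.28. Hist4h4 was uneven between libraries: its G2/M ratio was 0.75 at control day 2, 3.03 at A20 cKO day 1 on 3 UMIs and 2.26 at A20 cKO day 2, with intervals that excluded 0, while those of the other 3 libraries spanned it. In the S class 2 members were at least 2-fold higher (3.29%), Hist1h2bj at 1.74 and Hist1h2an at 1.35, and 2 lower (1.81%), Hist4h4 at -1.45 and Hist3h2a at -1.23. These rest on few UMIs, with 13 and 16 for the 2 higher genes, and the S class is the unstable one, as its sum showed.

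**Figure D4:**
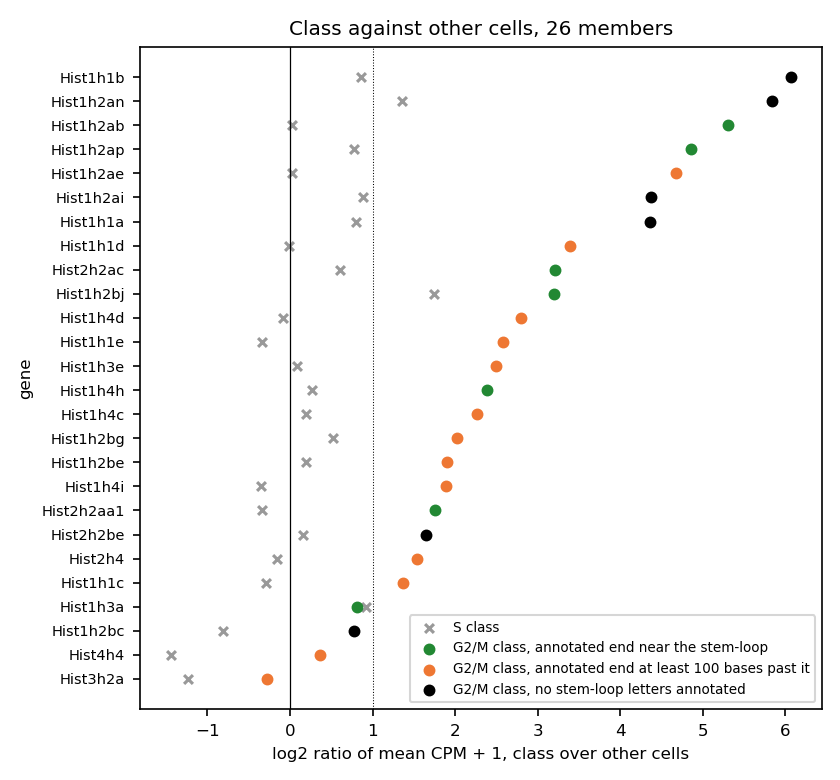
Log2 ratio of mean CPM + 1 over 6 libraries, class over other cells, for the 26 members. Circles are the G2/M class, coloured by where the annotated transcript ends relative to the stem-loop, and crosses the S class. Ratios in the G2/M class run from 6.07 for Hist1h1b to -0.28 for Hist3h2a, and 22 lie right of the dotted line at 2-fold.

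The classes were split further, a division chosen after the class values had been seen. In control day 2, cells with both 3 core S and 3 core G2/M genes had 2062 CPM of the summed members and G2/M cells without the S genes 1784 CPM. The 152 S class cells with 1 or 2 G2/M genes had 654 CPM (599 to 714), and the 41 with no G2/M UMI had 335 CPM (256 to 431), an interval that holds the 423 CPM of other cells. At control day 3 the 4 values in that order were 6794, 4042, 648 and 342 CPM, beside 528 CPM in other cells, and in A20 cKO naive 7915, 4267, 486 and 733 CPM beside 775 CPM. In all 3 libraries the sum was highest in cells with both gene sets and next highest in G2/M cells without the S genes.

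Ratios by histone type had medians of 4.52 for 8 H2A, 3.39 for 5 H1, 2.07 for 6 H4, 1.90 for 5 H2B and 1.65 for 2 H3 members. By transcript end, the median was 3.19 for the 7 members annotated to end within 100 bases of the stem-loop, 4.36 for the 6 in which the letters were not annotated and 2.03 for the 13 that run at least 100 bases past it. The ranges overlapped widely: the last group ran from Hist3h2a at -0.28 to Hist1h2ae at 4.68, the first began with Hist1h3a at 0.81 and the group without the letters with Hist1h2bc at 0.78. Transcript annotation and histone type overlap in these genes, and neither was tested. The 6 without the letters are unlike in length. Hist1h1b, Hist1h1a, Hist1h2an and Hist1h2ai, at ratios of 6.07, 4.36, 5.84 and 4.37, have annotated transcripts of 743, 741, 393 and 393 bases. Hist1h2bc and Hist2h2be, at 0.78 and 1.64, have 1156 and 2620 bases. A short annotation may stop before the hairpin, so the letters may be missing from the annotation alone.

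The libraries also differed within the G2/M class. Hist1h1b was at 65.3 CPM (56.4 to 75.2) at control day 2 and at 517 CPM at control day 3 and 798, 1092, 875 and 692 CPM in A20 cKO naive and day 1 to 3. Hist1h2an had 16.4 CPM at control day 2 and 257 to 374 CPM in the other 5, and Hist1h1e 90.6 CPM against 761 to 1039.6 CPM. Hist1h2ap, whose annotated tail holds the 12 A, was at 1009 CPM (973 to 1046) at control day 2 and at 1064 (994 to 1137), 1616, 1795, 1589 and 1084 CPM (964 to 1214) in the others. Control day 2 was thus low by a wide gap for Hist1h1b, Hist1h2an and Hist1h1e, whereas for Hist1h2ap its interval overlapped those of control day 3 and A20 cKO day 3. Of the 26 members 18 were below all 5 other libraries at control day 2 in the G2/M class (25.2% of all genes were), Hist1h2ap with overlapping intervals, and 0 above all 5 (17.4%). Hist4h4, Hist3h2a and the H4 gene Hist1h4i were among the 8 within the range of the 5. Control day 2 is the only library outside the 5 with enough G2/M cells, so day, genotype and library set cannot be told apart here. Within the 5, control day 3 and A20 cKO day 3 had close G2/M sums of 4849 and 4582 CPM.

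**Figure D5:**
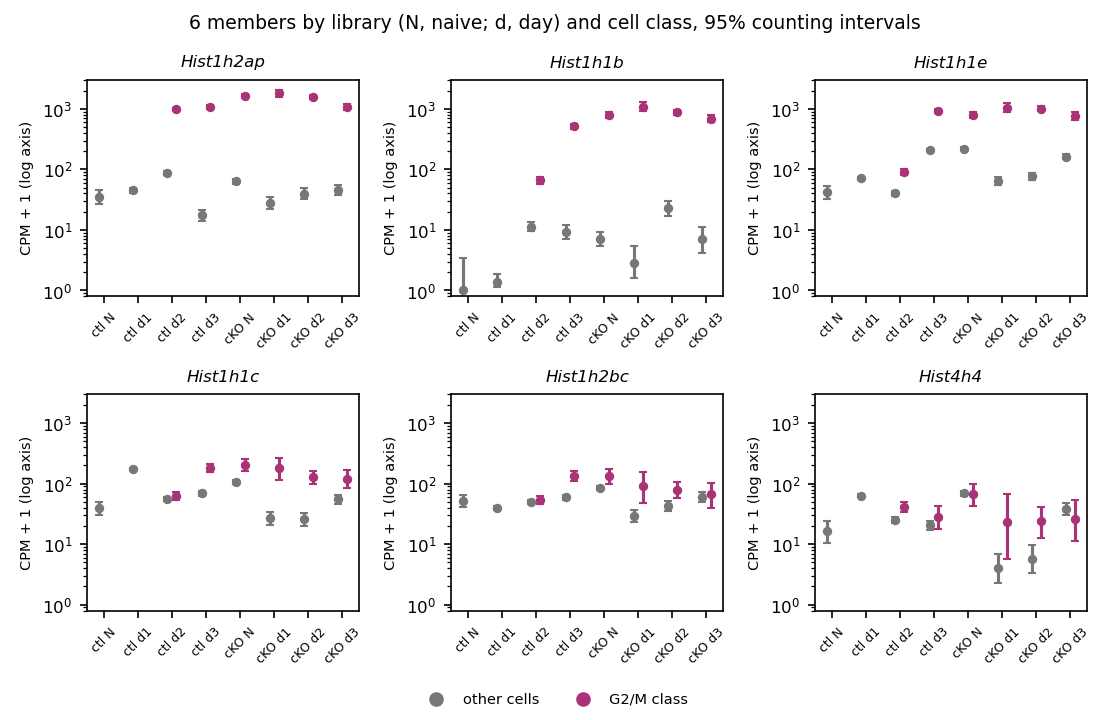
CPM + 1 on a log axis of 6 members in other cells and in the G2/M class of each library, for classes of at least 20 cells, with 95% Poisson intervals. In the G2/M class Hist1h1b lies at 65.3 CPM at control day 2 and at 517 to 1092 CPM in the 5 other libraries, Hist1h2ap at 1009 to 1795 CPM in all 6, and the intervals of Hist4h4 overlap between classes at control day 3, A20 cKO naive and A20 cKO day 3.

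Other cells were also compared alone, so that cells called G2/M do not enter. Dividing cells with fewer than 3 core G2/M genes and fewer than 3 core S genes stay among the other cells. Their number can therefore still enter these values, and its part was not tested. Between A20 cKO day 1 and naive 15 of 26 members were at least 2-fold lower in other cells (2.45% of all genes) and 0 higher (2.84%), and at day 2 10 were lower (3.80%) and 1, Hist1h1b, higher (3.08%). For Hist1h1c the log2 ratios to naive in other cells were -2.05, -2.10 and -0.98 at day 1 to 3, for Hist4h4 -4.41, -3.77 and -0.86, for Hist2h4 -3.10, -2.53 and -0.74 and for Hist1h1e -1.81, -1.54 and -0.44. Each was lowest at day 1 or day 2 and nearest to naive at day 3. At day 3 0 members were 2-fold higher (2.70%) and 3 lower (3.47%), Hist2h2aa1, Hist1h4c and Hist1h1a. In control other cells Hist1h1c at day 1 stood 2.18 (1.82 to 2.59) and Hist4h4 2.01 (1.44 to 2.70) above naive, with 4 members at least 2-fold higher (4.39%) and 2 lower (10.6%). At control day 2 other cells still had 8 members at least 2-fold higher than naive (5.0%, or 510 of 10201 genes) and 1 lower (8.01%), Hist1h2ap among the 8 at 86.1 against 34.4 CPM. At control day 3, which crosses, 9 were higher (9.26%) and 2 lower (3.94%), and Hist1h2ap was now among the lower, at 16.4 CPM. Between genotypes at day 3, 3 were higher in A20 cKO other cells (2.79%), Hist2h2be, Hist1h2ap and Hist1h2ae, and 1 lower (4.58%), Hist1h1a. A20 cKO naive against control day 3 gave 8 higher (1.27%) and 0 lower (1.80%), with Hist1h2ap at 62.9 against 16.4 CPM and Hist4h4 at a log2 ratio of 1.79. The crossing contrasts of A20 cKO with control gave 16 higher (8.45%) and 0 lower (3.66%) in naive, 7 higher (17.5%) and 7 lower (3.47%) at day 1, and 4 higher (11.9%) and 7 lower (6.30%) at day 2. In sums over a class, fewer cells with a transcript and less of it per cell cannot be told apart.

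Hist3h2a and Hist1h2bc, neither 2-fold higher in the G2/M class, spanned the narrowest ranges among the 7 most abundant members. Hist3h2a was at 94.4, 50.6, 67.2 and 43.9 CPM in control naive and day 1 to 3 and at 64.4, 38.3, 36.3 and 45.3 CPM in A20 cKO, with naive the highest of each genotype. Hist1h2bc was at 50.6, 38.8, 48.1 and 66.0 CPM in the control libraries and at 85.0, 33.0, 47.5 and 60.2 CPM in the A20 cKO ones. Hist4h4 was at 14.8, 61.6, 26.5 and 20.4 CPM along the control series and at 65.9, 3.63, 7.91 and 34.6 CPM along the A20 cKO series. It had in each library the same direction from naive as Hist1h1c. At control day 3, which crosses between the sets, its step from naive was small, from 14.8 to 20.4 CPM.

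Genes that process histone mRNA or carry histones were read from lists of known function. Over all genes tested 6.02% were at least 2-fold higher in the G2/M class, 3.29% in the S class and 1.81% lower in each, which is the background for the counts below. Of 13 processing genes 12 were in the files and 11 had 200 UMIs: 2 of the 11 were at least 2-fold higher in the G2/M class and 1 in the S class, and 0 lower in either. Slbp, whose protein binds the stem-loop, was higher in both, at a log2 ratio of 1.13 in the S class (from 129.9 CPM in other cells to 285 CPM, higher in 6 of 6 libraries), and the 3′ exonuclease gene Eri1 in G2/M. Of 14 histone chaperone genes 10 were at least 2-fold higher in the G2/M class and 6 in the S class, with 0 lower. The 6 in the S class were Chaf1a at 2.48 and Chaf1b at 1.91, subunits of the assembly factor CAF-1, Asf1b at 2.26, the H1 and H3 chaperone gene Nasp at 1.63, the acetyltransferase gene Hat1 at 1.54 and Nap1l1 at 1.16. Each was higher in 6 of 6 libraries. The S class ratios of the genes in these lists were not recomputed under the settings that made the histone sum unstable. Of 10 replacement histone genes 8 had 200 UMIs. In the G2/M class 3 of these 8, H2afz, H2afv and H2afx, were at least 2-fold higher, and in the S class 0 were. H3f3b, a gene of the replacement form of H3, had the most UMIs of all genes in these lists, with 127911 UMIs and 1125 to 4675 CPM. It was highest in control day 1, the library in which Hist1h1c was also highest.

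Over the 8 libraries the genes whose log2(CPM + 1) was most like that of the summed members, out of 3464 candidates averaging 50 CPM or more, were mt-Co1 (Pearson r = 0.95), Nono (0.94), Smc3 (0.93), Lap3 (0.93) and Rtcb (0.92). The 8 points share the split into 5 and 3 libraries, and within the 5 the coefficients were 0.79, 0.91, 0.83, 0.93 and 0.70.

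The 43 members with fewer than 200 UMIs had 0 to 177 UMIs each. Hist1h2bb (177 UMIs) and Hist1h2af (157) were the most abundant H2B and H2A genes among them, and Hist1h2af lay at 0 UMIs in control naive and at 14.5 CPM in A20 cKO day 2, its highest library. Hist1h2bh and Hist1h2bm, not found by identifier in the transcript set, had 15 and 115 UMIs.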

How the data were processed

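The authors deposited, for each of the 8 libraries, a matrix of UMI counts per gene and cell barcode with its gene and barcode lists. These counts came from 10x 3′ libraries and, per the submitters' processing notes, Cell Ranger 2.1.1 and mm10. The labels and the study's methods name different versions of the kit. Sorting gates excluded doublets and no doublet caller was run here. The study's integrated clusters were not used.

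Genes, UMIs and barcodes were read with Python 3.11.15, numpy 2.4.6, pandas 2.3.3 and scipy 1.17.1, and plotted with matplotlib 3.10.9. Kept cells had at least 1000 UMIs, 500 genes and at most 10% mitochondrial UMIs, which gave 1620481 to 15817426 UMIs per library. UMIs of kept cells were summed per library or class and divided by the total. Log2 ratios between libraries added 0.5 UMIs to each sum, and mean class ratios added 1 CPM. A count of 3 was the floor for genes at 0. Random thinning without replacement to 2000 UMIs preceded shares and class calls, while class levels used all UMIs of those cells. In all, 11 pairs of libraries were compared. Each group is 1 library of pooled animals, so no test was made. The log2 ratios between libraries and their intervals were tested on simulated Poisson counts, without variation between animals or cells. The totals after thinning were checked, but class calls, shares and sequence features were not simulated.

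The genes named were Hist1h1c and the 25 other members with the most UMIs, the 3 highest and 3 lowest members of each pair, pathway genes past 2-fold in the S class and the 5 most similar other genes. Members with fewer UMIs, Eri1, H2afz, H2afv, H2afx and H3f3b were named after their values were seen. The members and lists were chosen with earlier results of these data known. Alternatives were the cell filter, scaling, mean of cell values, UMI minimum, added count, thinning, number of core genes, and leaving out shared barcodes. 2 further alternatives, leaving out Hist1h1e or Hist1h2ap, were chosen after seeing the data.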

Additional observations from a re-analysis of the deposited data

Results flagged for a closer look

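Hist4h4 and Hist1h1c lay on opposite sides of naive at day 1 in the 2 genotypes. For Hist4h4 the log2 ratio of day 1 to naive was 2.03 in control and -4.12 in A20 cKO, and for Hist1h1c it was 2.07 in control and -1.77 in A20 cKO. All 4 counting intervals excluded 0, but each side is 1 library against 1 library and the difference between genotypes was not tested. The control pair lies within the 3 libraries that share few barcodes and the A20 cKO pair within the 5 that share many, so genotype and library set cannot be told apart.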

How the results depend on the processing

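No paired analysis was possible because each group is 1 library. Of the recomputed values 347 stayed within the counting interval of the value reported or within 1.5 times the count, 138 lay outside it and 1 turned its direction. Only a value whose interval held a single direction could count as turned. Other changes of sign are among the 347 or the 138. The log2 ratios of Hist1h1c between libraries stayed within their intervals under each alternative tried for them. The cause of the changes below was not tested.

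With the mean of cell CPM, the log2 ratio of the sum was 0.69 and 1.24 at control day 2 and day 3 against naive, -0.93 and 0.14 at A20 cKO day 1 and day 2 against naive, 1.32, 0.20 and 0.78 for A20 cKO against control in naive, day 1 and day 2, and 0.087 for A20 cKO naive against control day 3. The median level over libraries was 709 CPM in place of 839.8 CPM. Scaled to the median gene, the ratios were 0.35 and 1.11 at control day 1 and day 2, 0.54 and 0.12 at A20 cKO day 2 and day 3, and 0.28, 0.88 and 0.10 between genotypes at day 1, day 2 and day 3. Counts of members then became 7 higher at control day 1, 0 lower at control day 2 and 4 higher at A20 cKO day 3. Scaled without mitochondrial and ribosomal-protein UMIs, A20 cKO day 2 was at 0.53. Without barcodes found in more than 1 library, A20 cKO day 1 was at -0.93 against naive and 0.35 against control day 1. Without Hist1h1e, chosen after seeing the data, the ratios were 1.19 at control day 3, -0.63 and 0.60 at A20 cKO day 1 and day 2, 1.22, 0.78 and 0.11 between genotypes in naive, day 2 and day 3, and 0.033 for A20 cKO naive against control day 3.

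Minimums of 100 and 1000 UMIs were reached by 35 and 11 members. No shares of all genes were formed for them or after scaling to the median gene. With at least 100 UMIs, counts were 7 lower at control day 1, 2, 13 and 6 higher at A20 cKO day 1, 2 and 3, 18 higher in A20 cKO at day 1 and 4 lower in A20 cKO naive against control day 3. With at least 1000 UMIs, control day 1 had 1 lower, control day 2 had 4 higher and 0 lower, and control day 3 had 6 higher. A20 cKO day 1 then had 5 lower, day 2 had 4 higher and 3 lower, and day 3 had 1 higher. A20 cKO against control had 9 higher in naive, 5 higher and 3 lower at day 1, 5 higher at day 2 and 0 higher at day 3, and A20 cKO naive against control day 3 had 0 lower.

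Median shares of cells were 34.4% for the sum and 5.73% for Hist1h1c when thinned to 1000 UMIs, and 73.0% and 18.4% without thinning. The median G2/M ratio of the sum, 3.13 as reported, was 2.78 with 2 core genes, 3.42 with 4, 2.76 with classes called without thinning, 3.25 with another thinning and 2.84 without Hist1h2ap, chosen after seeing the data. With 4 core genes the S class ratio turned to 0.83 in A20 cKO naive, and its median was 0.80.

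Depth limits the low members most: control naive had 1620481 UMIs, so a count of 0 there allows up to 1.85 CPM at the floor of 3 counts, and ratios against it carry the widest intervals.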
